A study of Mus musculus with 6 samples.

Results

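The presynaptic vesicle machinery examined here is a set of 32 genes whose products store, release or recycle synaptic vesicles at nerve terminals. The genes were chosen by name: every probe outside the array's controls whose gene name in the scanner files was one of the 32 was taken, which gave 80 probes. All 32 genes had at least 1 tested probe, among 24933 genes tested in all. The study set MSA transgenic mice against wild-type mice, with 3 samples of each genotype at 16 weeks of age. All 6 samples were brainstem with cerebellum from mice of a mixed C57BL/6, 129 and C3H background, and each was hybridised alone to a single-colour Agilent array. The labels do not spell out MSA, name the transgene or its promoter, give the sex or say whether each sample was a separate animal, so the spread behind each p-value is that between these samples and may be technical.

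At a resting terminal, synaptic vesicles are held in a cluster by the synapsins and loaded with transmitter. Scaffolds of the active zone dock and prime them, and the SNARE proteins (Snap25, syntaxin and the synaptobrevins) then zip together, held ready by complexins, until a synaptotagmin binds calcium and fusion follows. Nsf with its adaptor proteins takes the spent SNARE complexes apart, and amphiphysin, endophilin and dynamin retrieve the membrane. In cerebellum and brainstem these messages are made by granule cells, Purkinje cells, projection neurons and local inhibitory neurons. In bulk tissue, fewer neurons and less message per neuron cannot be told apart.

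Each level below is a log2 signal minus the log2 of that array's 75th percentile of signal, so a level of 0 lies at the 75th percentile. A difference is the transgenic mean minus the wild-type mean, and 1 unit is a doubling. Levels of different probes are not compared, since probes bind with different strength. A gene was read from its tested probe with the highest mean signal, and a probe was tested if all 3 arrays of 1 genotype or the other flagged it as well above background. Of the 80 probes, 74 were tested, and 73 of these were well above background on all 6 arrays. The 6 that were not tested were 2 of the 3 Vamp1 probes and 1 probe each of Sv2c, Synpr, Bsn and Sh3gl2. A gene was called when its adjusted p was under 0.05 in limma's moderated test over all genes.

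Several results turn on what a probe reads, so the probes concerned are shown first, 5′ to 3′ as the scanner files give them, with mm9 positions from the same files. The Snap25 probe read for the gene carried one of the 4 differences with the smallest p among the 32 genes, and its first 30 of 60 bases are given, with the longest tandem repeat in capitals. It lies at chr2:136607709-136607768 on the plus strand.
Snap25 A_55_P2051849: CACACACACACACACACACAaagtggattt
It opens with a CA repeat of 20 bases, a kind of repeat that occurs at many places in the mouse genome. The files do not say whether this stretch is coding or untranslated.

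A probe named for Cplx2, A_55_P2067960, is largely a repeat, as its first 30 bases show, again with the longest tandem repeat in capitals. The files place it at chr19:44414679-44414738. A probe named for Gcm1, placed at chr7:123731567-123731626 and picked after its values were seen, is given as an example of a probe of the same kind.
Cplx2 A_55_P2067960: AGGAGGAGGAGGAGGAGGAGGAGGAGGAGG
Gcm1 A_55_P2114697: GAAGAAGAAGAAGAAGAAGAAGAAGAAGAA
The Cplx2 probe holds no C or T in 60 bases, and 15 of 56605 probes with a sequence are made of A and G alone. Among the 15 is also the probe from which Cplx2 was read, A_55_P1962603, which is placed on another chromosome, 13. A_55_P2067960 has 12 distinct hexamers, where the median probe on the array has 55.

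The intron-crossing probes of the paralogues Rab3a and Rab3c are shown because they read matching stretches of 2 related messages and stood apart on 1 array, as described further on. Rab3a's lies at chr8:73280430-73281061 on the plus strand and Rab3c's at chr13:110874433-110971216 on the minus strand. Capitals mark the bases that the pair share when the Rab3c probe is set 5 bases along the Rab3a probe.
Rab3a A_51_P110629: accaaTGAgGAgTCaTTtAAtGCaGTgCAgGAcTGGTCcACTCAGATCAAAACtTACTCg
Rab3c A_51_P481978: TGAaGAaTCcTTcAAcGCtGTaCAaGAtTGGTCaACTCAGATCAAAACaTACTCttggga
They share 43 of 55 aligned bases (78.2%), and the 12 that differ are spread along the alignment.

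No gene of the 32 passed the test. Limma's lowest adjusted p among them was 0.488, for Rims1, whereas 11 of the 24933 genes tested passed (0.0441%). Read probe by probe, 0 of the 74 tested probes passed, against 0.0286% of all tested probes. At an unadjusted p under 0.05 there were 4 genes with lower levels in transgenic samples (Rims1, Snap25, Syt2 and Unc13c) and 0 with higher levels. Over all genes the shares were 2.71% lower and 3.15% higher. The 3 transgenic values lay wholly below the 3 wild-type values in 5 genes, against 7.5% of all genes, and wholly above them in 1, Sv2a, against 7.4%.

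Most of the 32 genes were close to level between genotypes. The size of the difference was under 0.1 in 19 genes and under 0.2 in 27. The 95% interval lay within 1.5-fold either way in 29 genes (90.6%), against 61.3% of all genes, and within 2-fold in 31. The exception at 2-fold was Syn3. The sign of the difference was negative in 22 genes and positive in 10, a lower share of 68.8%, with 50.1% of all genes lower. The median difference of the 32 was −0.04, beside 0.00 for all genes, and the lower count was 21 to 22 under the other background correction and scalings tried. Without 1 wild-type array, however, 14 genes were lower and the median was 0.01, as set out below.

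**Figure D1:**
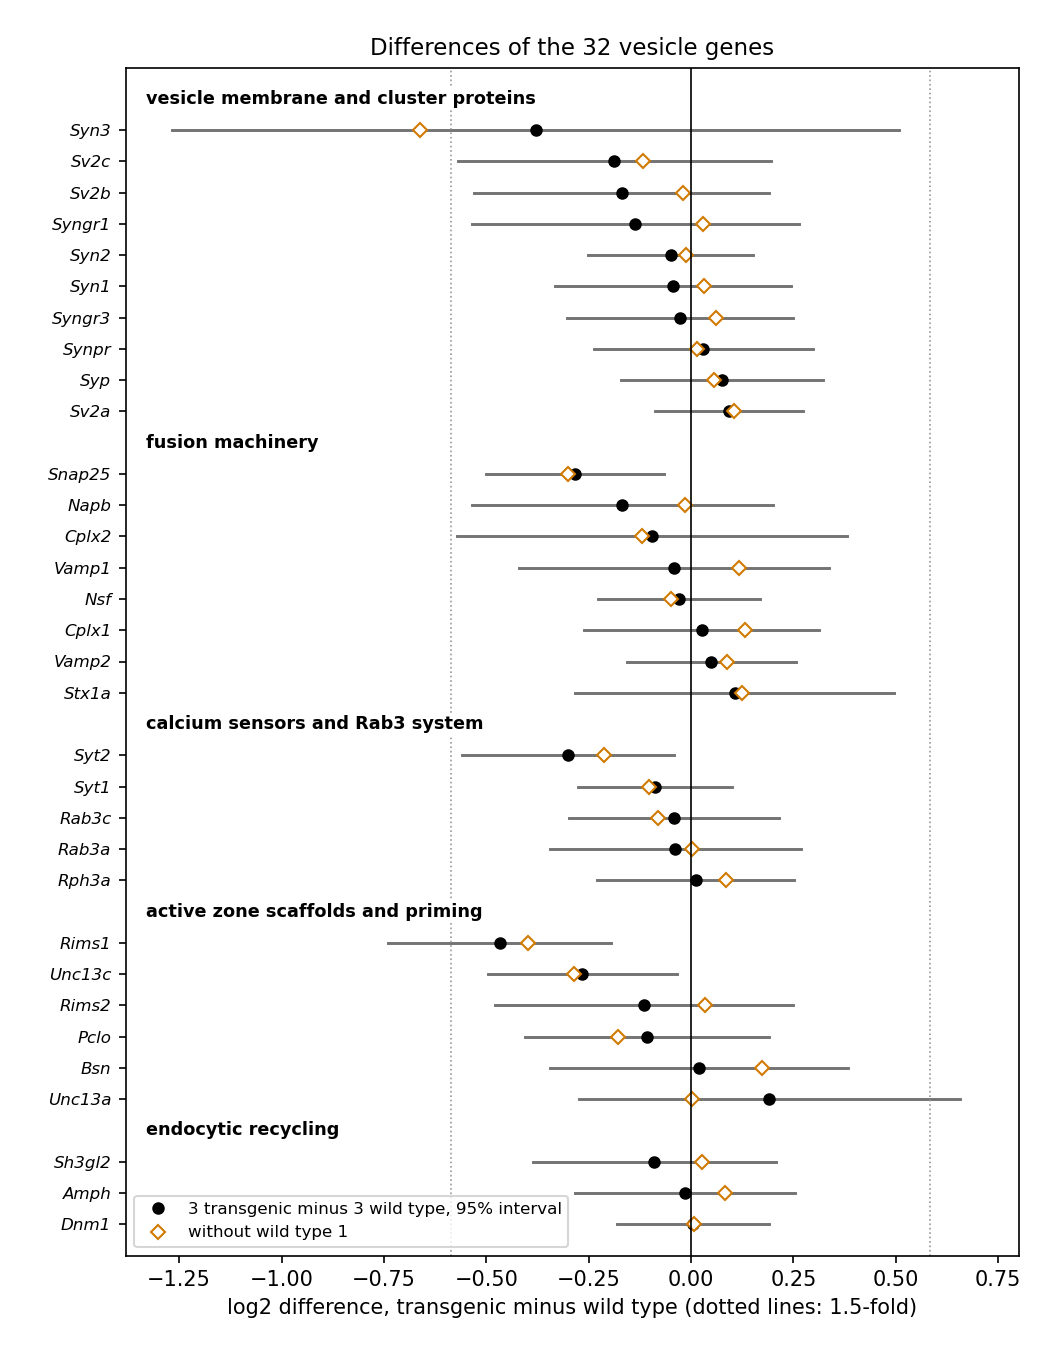
The log2 difference (x axis, transgenic minus wild type) of each of the 32 genes by role, with the 95% interval of limma's fit as a line and the difference without wild type 1 as an open diamond. The intervals of Rims1, Snap25, Syt2 and Unc13c lie below 0, and several diamonds near 0 lie to the right of their dots.

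Wild type 1 stood apart from the other 5 arrays. It was the only array on slide 1, while the other 5 shared slide 2. Its 75th percentile of signal was 406, against 535 to 609 on the others, and 64.8% of its probes were well above background, against 68.6% to 71.7%. Its correlation with the others across genes was 0.974 to 0.978, and those 5 correlated at 0.991 to 0.996 with each other. A fit with slide as a block rests on the 3 transgenic and 2 wild-type arrays of slide 2, so slide and this sample cannot be told apart.

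**Figure D2:**
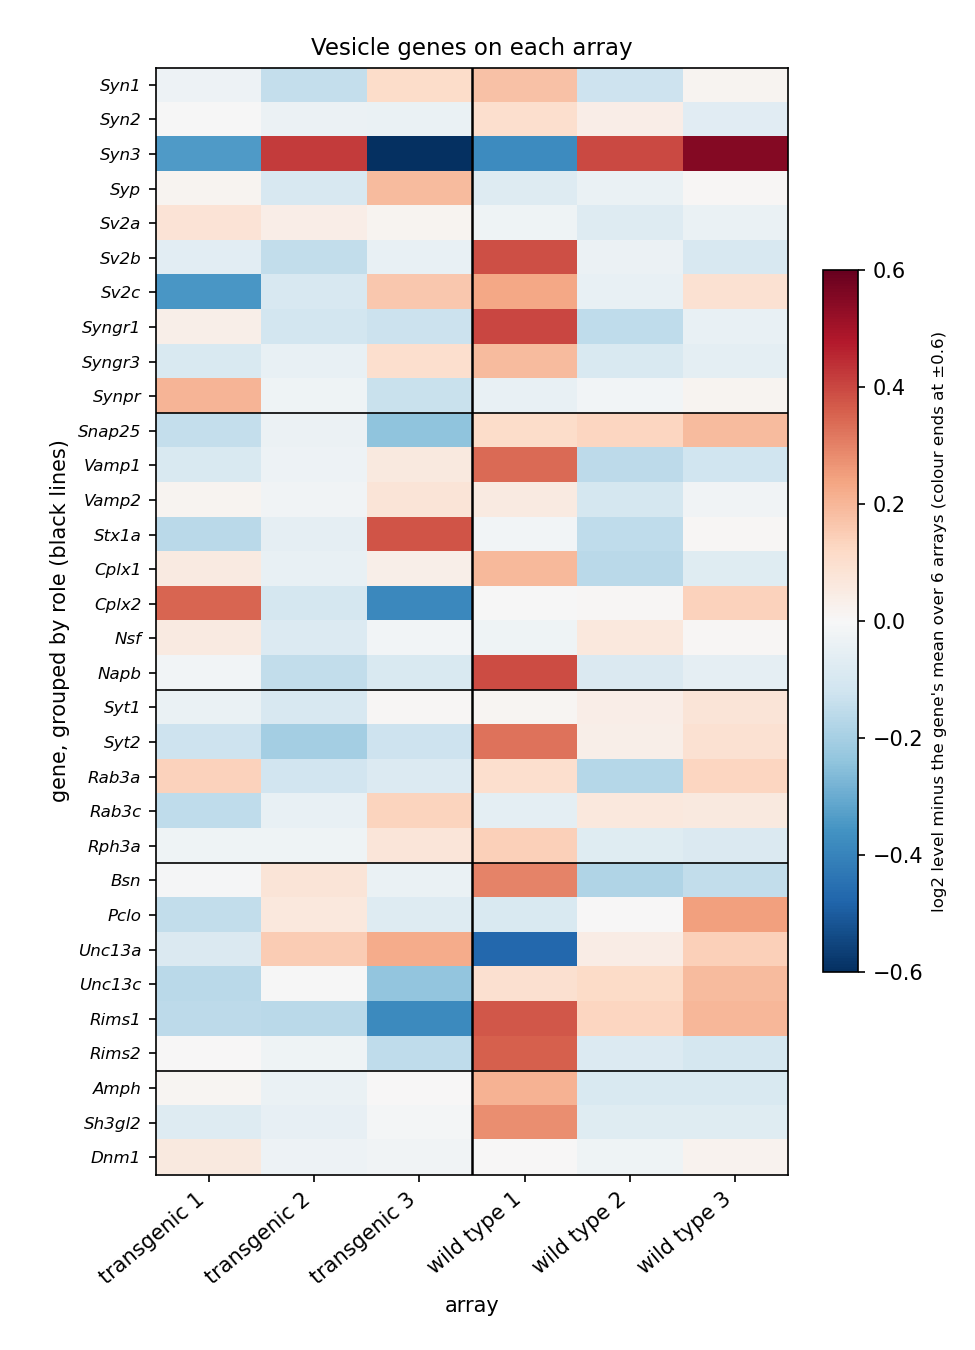
Level of each of the 32 genes (rows, by role) on each of the 6 arrays (columns), as the log2 level minus the gene's own mean over 6 arrays, red above and blue below. The wild type 1 column holds the highest value of 16 genes.

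That array was the highest of the 6 for 16 of the 32 genes and the lowest for 1, where 32.7% of all genes were highest on it. The vesicle genes lay a median of 0.12 above the mean of the other 2 wild-type arrays on it, while the median over all genes was 0.00. The median shift of the 32 genes from their own means was −0.03, −0.05 and −0.02 on the 3 transgenic arrays, against 0.10, −0.04 and 0.01 on the wild-type arrays. Wild type 1 lay furthest from the rest, wild type 2 lay among the transgenic arrays and wild type 3 just above them. Without wild type 1, 8 genes changed sign. With 3 arrays against 2, the transgenic values lay wholly below wild type in 5 genes (Snap25, Syt1, Syt2, Unc13c and Rims1), against 15.2% of all genes. They lay wholly above in 6 (Sv2a, Vamp1, Cplx1, Rph3a, Bsn and Amph), against 13.3%. Genes that separate on 6 arrays must also separate on 5 of them.

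The proteins of the vesicle membrane and cluster numbered 10 genes, of which 7 had lower and 3 higher transgenic means (median difference −0.05). Sv2a, a vesicle glycoprotein and the binding site of the antiepileptic levetiracetam, had levels of 3.25, 3.20 and 3.18 in transgenic samples, against 3.14, 3.09 and 3.13 in wild type. All 3 transgenic values were above all 3 wild-type values. Its difference was 0.09 ± 0.07 (SE, n = 3 each; limma adjusted p = 0.817). Sv2c, the family member found mainly in basal ganglia and brainstem, had levels of 2.71, 2.97 and 3.22 in transgenic samples, against 3.30, 3.02 and 3.15 in wild type. The transgenic samples spread over a wider range than the difference of −0.19 ± 0.16 between means (limma adjusted p = 0.817). Its other 2 tested probes had differences of −0.13 and 0.01. Sv2b, the remaining Sv2 protein, had a difference of −0.17, which was −0.02 without wild type 1.

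Synaptogyrin 1, a tetraspan protein of the vesicle membrane encoded by Syngr1, was read in opposite directions by 2 probes. Its brighter probe, A_52_P239320 at chr15:79949191-79949250, had levels of 2.62, 2.47 and 2.45 in transgenic samples, against 2.98, 2.43 and 2.54 in wild type. The groups overlapped, wild type 1 was the highest, and the difference was −0.14. Its other probe, A_51_P270741 at chr15:79943781-79943840, had levels of 2.0, 1.84 and 1.92 in transgenic samples, against 1.66, 1.57 and 1.62 in wild type. Here all transgenic values lay above all wild-type values, and the difference was 0.31 ± 0.09 (SE, n = 3 each; limma adjusted p = 0.694). The files assign these 2 probes to different RefSeq transcripts of Syngr1. Of the 74 tested probes, 5 had an unadjusted p under 0.05, against 5.59% of all tested probes, and this was the only one that was higher in transgenic samples.

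The synapsins tie vesicles to each other and to actin. Syn1 had a difference of −0.04. Syn2 had levels of 4.90, 4.87 and 4.86 in transgenic samples, against 5.002, 4.94 and 4.84 in wild type, with overlap. Its difference was −0.05, and its other 2 probes had 0.03 and −0.20. Syn3, the synapsin best known from developing neurons, had 6 tested probes that disagreed. Its brightest probe had levels of −0.30, 0.47 and −0.61 in transgenic samples, against −0.33, 0.44 and 0.59 in wild type. Both genotypes held high and low values, and the difference of −0.38 ± 0.36 was about the size of its error. Without wild type 1 it was −0.66 ± 0.32. The next probe had 0.16, and 3 more had −0.10, −0.12 and 0.11. The dimmest passed the filter only through the 3 transgenic arrays, since no wild-type array flagged it well above background. With wild-type values set no lower than the dimmest flagged probe of each array, its transgenic signal was 0.922 times wild type. No difference is read from it. The remaining proteins of this group are tetraspan vesicle proteins: synaptophysin (Syp) had a difference of 0.07, Syngr3 had −0.03 and synaptoporin (Synpr) had 0.03.

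The fusion machinery numbered 8 genes, 5 with lower and 3 with higher transgenic means (median difference −0.04). Snap25, which anchors the plasma membrane side of the SNARE complex, had levels of 6.43, 6.53 and 6.33 in transgenic samples, against 6.68, 6.70 and 6.76 in wild type. The groups did not overlap, and all 3 wild-type values lay close together. The difference was −0.28 ± 0.09 (SE, n = 3 each), or 0.822 times the wild-type signal (limma adjusted p = 0.716). That reading came from the probe that opens with the CA repeat. The probe that crosses an intron, A_52_P165961, had levels of 3.07, 3.05 and 3.12 in transgenic samples, against 3.43, 3.07 and 2.98 in wild type, with a difference of −0.08. The third, A_55_P2716291, had a difference of −0.04. Of the 3 Snap25 probes, 1 separated the genotypes.

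Napb, a brain form of the adaptor that brings Nsf to spent SNARE complexes, had levels of 4.56, 4.43 and 4.49 in transgenic samples, against 4.97, 4.49 and 4.53 in wild type. Only wild type 1 stood clear of the transgenic values. The difference was −0.17 ± 0.15 (limma adjusted p = 0.817), and without wild type 1 it was −0.01. Nsf itself, the ATPase that separates SNARE complexes, had −0.03 on its brightest probe and −0.18, −0.03 and −0.06 on the others. The vesicle SNAREs did not separate by genotype: Vamp2, the main synaptobrevin of the forebrain, had a difference of 0.05, and Vamp1, which prevails in brainstem and spinal cord, had −0.04. Without wild type 1 Vamp1 had a difference of 0.12. Stx1a, the plasma membrane syntaxin, had 0.11, with 1 transgenic value of −1.64 apart from the others, which lay from −2.18 to −2.01. Complexin 1 (Cplx1) had 0.03, and 0.13 without wild type 1.

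The 2 Cplx2 probes had differences of −0.09 and −0.32. Both are made of A and G alone and are of low complexity: the first, from which the gene was read, has 8 distinct hexamers. Its shifts from its own mean were 0.35, −0.10 and −0.38 on the transgenic arrays, against −0.004, 0.008 and 0.14 on the wild-type arrays. The second, A_55_P2067960, had levels of 6.61, 6.60 and 6.09 in transgenic samples, against 6.74, 6.71 and 6.82 in wild type. Transgenic 3 was far below the rest, and its groups did not overlap. Of the 13 probes made of A and G alone that carry other names, most also read low on transgenic 3, though AK157330 did not (0.29 above its mean). The median shifts of the 13 from their own means were 0.02, 0.07 and −0.42 on the transgenic arrays, against −0.24, 0.23 and 0.31 on the wild-type arrays. Transgenic 3 was the lowest array for 8 of the 13, and wild type 1 for the other 5. Their differences had a median of −0.25, with 12 of 13 below 0. The difference of the second Cplx2 probe lay within the range of theirs, −0.43 to 0.37. The 0.37 was that of AK157330, which had a shift of −2.69 on wild type 1. What share of either Cplx2 reading is Cplx2 message was not tested. A probe named Gm34843, a name that RefSeq holds as a synonym of Cplx2, is outside the chosen set and had a difference of −0.18 ± 0.14.

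**Figure D3:**
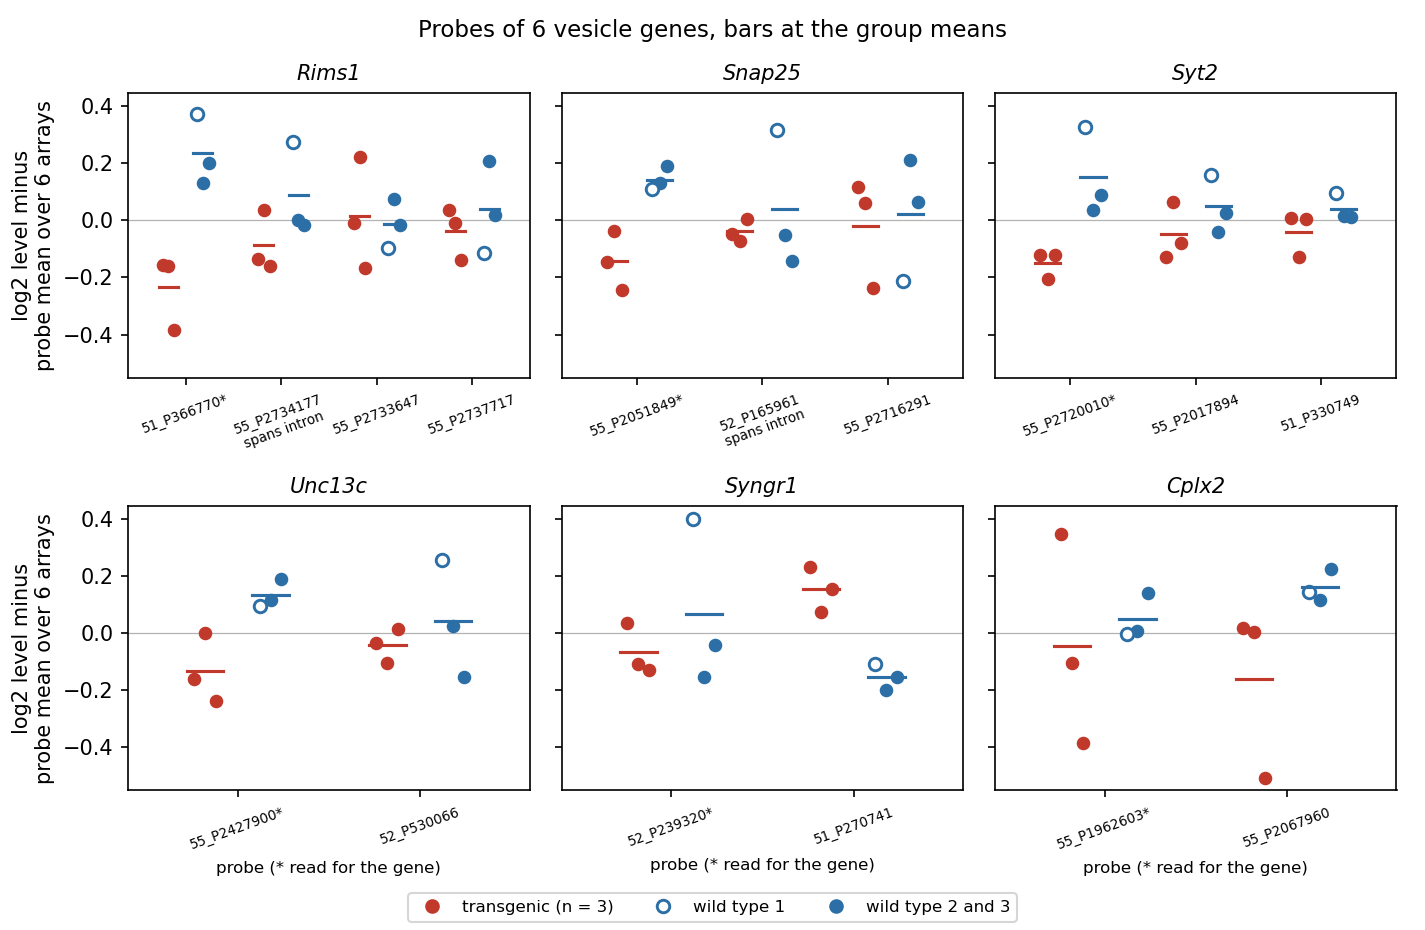
Log2 level of each tested probe of Rims1, Snap25, Syt2, Unc13c, Syngr1 and Cplx2 minus that probe's mean over 6 arrays, with transgenic samples in red on the left, wild type in blue on the right, wild type 1 open and bars at group means. In the first 4 genes the probe read for the gene separates the genotypes, and the other probes mostly do not.

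Among the calcium sensors and the Rab3 system, 4 of 5 genes had lower transgenic means (median difference −0.04). Synaptotagmin 2 (Syt2) is the fast calcium sensor of many hindbrain synapses. Its levels were 1.54, 1.46 and 1.54 in transgenic samples, against 1.99, 1.70 and 1.75 in wild type. The transgenic values were close together and all below the wild-type values, of which wild type 1 was the highest. The difference was −0.30 ± 0.10 (SE, n = 3 each), 0.812 times the wild-type signal (limma adjusted p = 0.787). Without wild type 1 it was −0.21. Its other 2 probes had differences of −0.10 and −0.08, and the groups did not overlap on the second of these.

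Syt1, the fast calcium sensor of forebrain synapses, had levels of 4.85, 4.79 and 4.89 in transgenic samples, against 4.90, 4.92 and 4.96 in wild type. All transgenic values were below all wild-type values, by little. The difference was −0.09 ± 0.08 (limma adjusted p = 0.817), and its other probes had −0.12 and −0.07, each with transgenic 3 the lowest. Rab3a, the vesicle GTPase that binds the active zone, had a difference of −0.04, and its paralogue Rab3c also had −0.04. Their intron-crossing probes had −0.05 and −0.19. Rph3a, which encodes the Rab3 effector rabphilin, had 0.01, and 0.09 without wild type 1.

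The active zone scaffolds and priming factors held the gene with the smallest p. Of these 6 genes, 4 had lower and 2 had higher transgenic means (median difference −0.11). Rims1 encodes a scaffold that links calcium channels, Rab3 and the priming factors. Its levels were −0.89, −0.90 and −1.12 in transgenic samples, against −0.36, −0.61 and −0.53 in wild type. The groups did not overlap, and the gap between them was wider than the spread within either. The difference was −0.47 ± 0.11 (SE, n = 3 each), 0.723 times the wild-type signal (limma adjusted p = 0.488). Without wild type 1 it was −0.40. The probe that crosses an intron had a difference of −0.17, and the other 2 had 0.03 and −0.08, all with overlap. With the mean of the 4 probes in place of the brightest, the Rims1 difference was −0.17.

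Unc13c encodes Munc13-3, a priming factor found mainly in the cerebellum. Its levels were 2.62, 2.78 and 2.54 in transgenic samples, against 2.87, 2.89 and 2.97 in wild type. The groups did not overlap. The difference was −0.27 ± 0.09 (SE, n = 3 each), 0.832 times the wild-type signal (limma adjusted p = 0.809), and −0.28 without wild type 1. Its second probe had −0.08. Unc13a, the priming factor of most forebrain synapses, had levels of −1.15, −0.91 and −0.84 in transgenic samples, against −1.53, −1.02 and −0.92 in wild type. Wild type 1 was the lowest, and the difference of 0.19 was 0.00 without it. Its other probes had −0.19 and −0.10. Pclo, which encodes the scaffold piccolo, had levels of 2.55, 2.76 and 2.62 in transgenic samples, against 2.61, 2.70 and 2.94 in wild type. The groups overlapped and the difference was −0.11, or −0.18 without wild type 1, with −0.29 and 0.02 on its other probes. Bsn, which encodes the partner scaffold bassoon, had 0.02, and 0.17 without wild type 1. Rims2 had −0.11, and 0.04 without wild type 1.

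The 3 genes of endocytic recycling were near level. Sh3gl2, which encodes endophilin A1, had levels of 3.48, 3.51 and 3.55 in transgenic samples, against 3.84, 3.49 and 3.49 in wild type. Wild type 1 alone was apart. The difference was −0.09 ± 0.12 (SE, n = 3 each; limma adjusted p = 0.843), and 0.03 without that array. Amph, which encodes amphiphysin, had 4.95, 4.90 and 4.94 in transgenic samples, against 5.15, 4.85 and 4.85 in wild type. Again wild type 1 was the highest, and the difference of −0.02 ± 0.11 (limma adjusted p = 0.969) was 0.08 without it. Dnm1, the dynamin that pinches vesicles from the membrane, had 6.95, 6.86 and 6.87 in transgenic samples, against 6.89, 6.86 and 6.91 in wild type. Its difference of 0.00 ± 0.08 had an interval from −0.18 to 0.19, and its second probe had −0.02.

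Where a gene had several probes, they often did not give 1 answer. Of the 23 genes with 2 or more tested probes, 15 had probes of the same sign and 8 had probes of both signs: Syn2, Syn3, Sv2c, Syngr1, Pclo, Unc13a, Rims1 and Dnm1. The mean difference was negative on 54 of the 74 tested probes. On 8 tested probes the transgenic values lay wholly below wild type, against 7.26% of all tested probes, and on 3 wholly above, against 6.68%. Those 3 include the dimmest Syn3 probe, which passed the filter only through the transgenic arrays. In each of the 4 genes with the smallest p, which was the p of the brightest probe, the difference was larger in size on that probe than on any other probe of the gene. The 4 were picked by that probe's p, which favours a larger difference on it.

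Wild type 1 also stood apart within genes, by kind of probe, a pattern picked after the values were seen. The files place 9 of the 80 probes over more than 60 bases of genome, as a probe that crosses an intron would be, and 8 of these, from 7 genes, were tested. On them, wild type 1 lay a median of 0.43 above the mean of the other wild-type arrays, with 7 of 8 above 0. On the 66 contiguous probes the median was 0.12, with 43 above 0. For Nsf the values were 0.78 and 0.44 on its intron-crossing probes. They were −0.06 on its brightest probe, which is contiguous, and 0.24 on its other contiguous probe. Each pair that follows gives the intron-crossing probe and then the gene's brightest probe, which is contiguous. For Rab3c the pair of values was 0.70 and −0.12, for Rab3a 0.56 and 0.12, and for Snap25 0.41 and −0.05. For Bsn the pair was 0.07 and 0.46, with the contiguous probe higher, and for Syn3 it was −0.22 and −0.85. For Rims1 it was 0.28 and 0.21. The part that the sample's RNA, slide or labelling had in this was not tested.

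**Figure D4:**
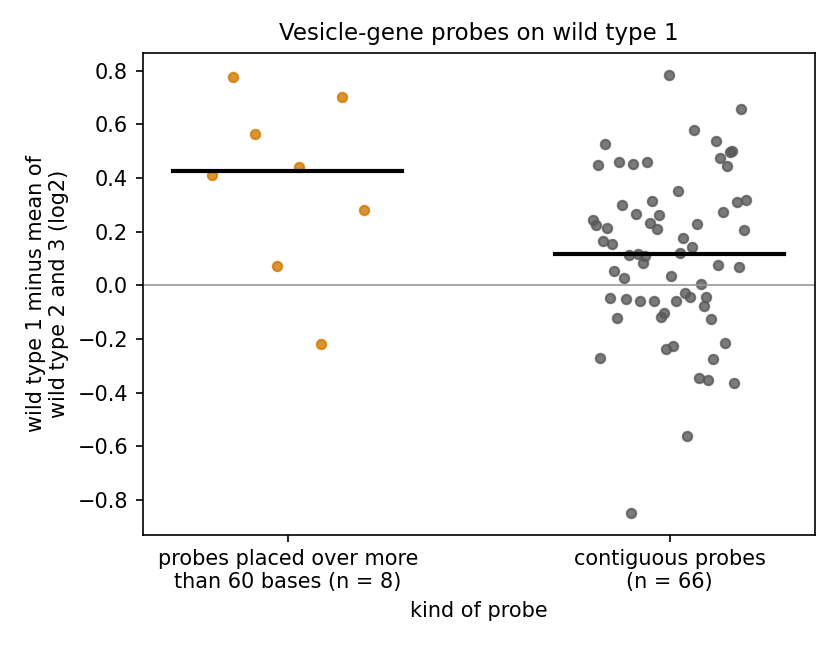
Wild type 1 minus the mean of wild type 2 and 3 (y axis, log2) for the 74 tested probes, with the 8 that the files place over more than 60 bases on the left and the 66 contiguous ones on the right. Bars are medians, 0.43 and 0.12.

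Of 87 other genes of fusion, calcium sensing, the active zone, transmitter loading, the Rab3 system and recycling, 0 passed the test in limma, 2 had an unadjusted p under 0.05 with lower levels and 0 with higher levels. Over all genes, 2.71% were lower and 3.15% higher at that p. The means of the 87 were lower in 56 (64.4%, with 50.1% of all genes lower) and higher in 31, with a median difference of −0.03. The transgenic values lay wholly below wild type in 6, against 7.5% of all genes, and wholly above in 4, against 7.4%. Lin7a, an adaptor protein of the synapse, had a difference of −0.31 ± 0.09 (limma adjusted p = 0.677), with 1.71, 1.86 and 1.75 in transgenic samples, against 2.19, 2.01 and 2.05 in wild type. Eps15, a clathrin adaptor, had −0.21 ± 0.08 (adjusted p = 0.817), and Sh3gl3, an endophilin, had −0.31 ± 0.14. The positive differences with the smallest p were 0.42 ± 0.17 for Itsn1, an endocytic scaffold, 0.19 ± 0.09 for Ap2a1, a subunit of the clathrin adaptor AP2, and 0.31 ± 0.16 for Slc17a8, a vesicular glutamate transporter. Without wild type 1 these positive differences were 0.23, 0.16 and 0.15, in the same order. Those of Lin7a, Eps15 and Sh3gl3 were then −0.25, −0.25 and −0.35. The median shifts of the 87 were 0.01, −0.06 and 0.02 on the transgenic arrays, against 0.14, −0.04 and −0.03 on the wild-type arrays. On wild type 1 the 32 were shifted by 0.10. Wild type 2 and 3 lay among the transgenic arrays for the 87. Their lower count includes wild type 1, and no count without that array is given.

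Markers of the cells that hold this machinery, and of cells that do not, were read on the same arrays. The 16 general neuronal markers had a median difference of −0.02, and their median shift on the arrays was −0.03, −0.08 and 0.04 in transgenic samples, against 0.11, −0.04 and −0.01 in wild type. The median difference was −0.17 for 14 granule cell markers, −0.13 for 14 Purkinje cell markers and −0.15 for 18 brainstem neuron markers, with 0 called in each. The granule cell list was shifted by 0.03, −0.03 and −0.19 on the transgenic arrays, against 0.12, −0.06 and 0.05 on the wild-type arrays. Wild type 1 was its highest array. The Purkinje list was shifted by −0.03, −0.07 and −0.04 on the transgenic arrays, against 0.01, 0.08 and 0.09 on the wild-type arrays, with no overlap. The differences of the brainstem list ran from −0.65 to 1.51, with 12 lower, 6 higher and a mean of −0.01. Its median shift on transgenic 1 was −0.42. The 11 tested forebrain markers had a median of 0.30, with Emx1 not tested (well above background on 1 array). Of 6 pituitary markers, Gh, Prl and Cga were well above background on 0 arrays. The other pituitary markers, Pomc, Lhb and Tshb, were bright enough to be tested and had differences of −0.14, 0.22 and −0.11. Among glial lists, 13 of 14 microglial markers had higher transgenic means (median 0.64, with 0 called), 13 of 14 oligodendrocyte markers had lower ones (median −0.33, with 1 called, Klk6), and 11 astrocyte markers had a median of −0.04. The part of cell composition or dissection in the vesicle gene values was not tested.

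**Figure D5:**
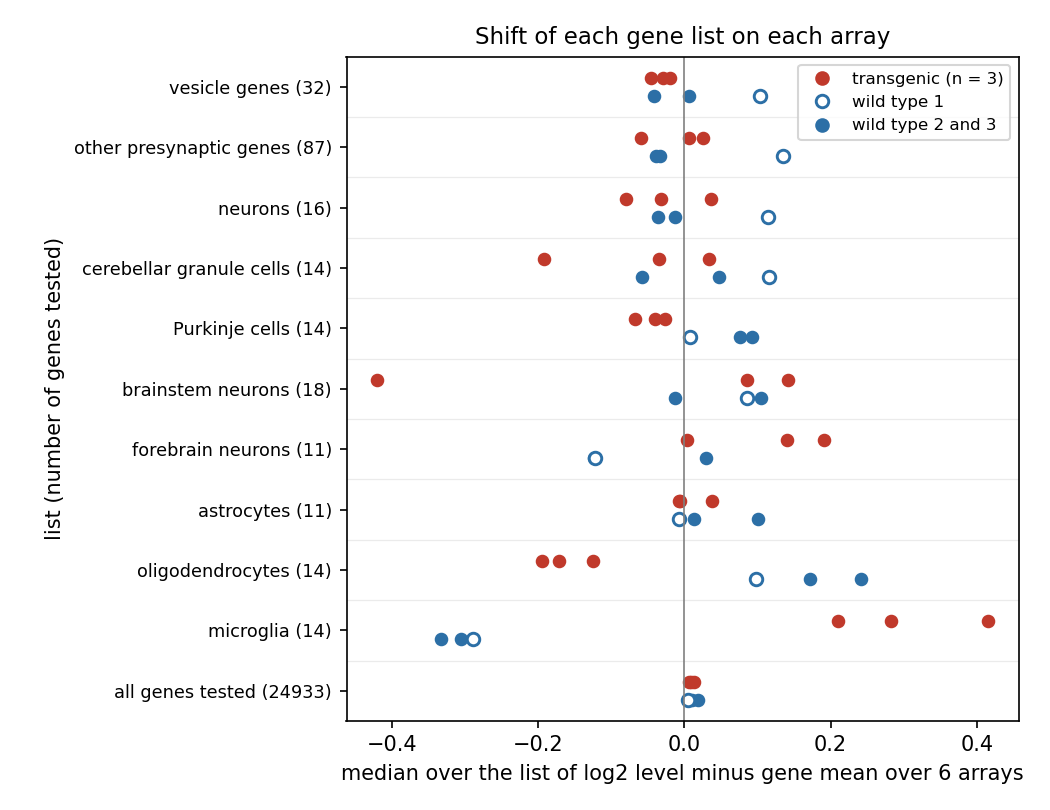
Median shift of each gene list on each array (x axis, log2 level minus gene mean over 6 arrays), transgenic in red above, wild type in blue below and wild type 1 open. The vesicle genes, the other presynaptic genes, the neuronal markers and the granule cell markers have wild type 1 to the right of the other 5 arrays. The Purkinje cell, oligodendrocyte and microglial lists separate by genotype.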

How the data were processed

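Total RNA from 6 brainstem and cerebellum samples was hybridised to 6 single-colour arrays. The deposited files hold each spot's processed intensity, which the authors obtained with Agilent Feature Extraction, version 10.7.1.1 per the file headers and 9.5.1.1 per the submitters' processing notes; no array was normalised to another. The deposited flags of other kinds (background and outlier calls) come from the same software, per the file headers. Probe positions are on mm9, per the file headers and columns. The authors' deposited value table was an alternative only: its scale is linear, all its columns share the median 59.9, and the log2 of its values correlated with the scaled values of the same arrays at 0.999 or more.

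Control and outlier spots were left out, spots of a probe were averaged on the log2 scale, and each array's 75th percentile was subtracted. The shifts and differences of the 13 A and G probes with other names, and the bound on the dimmest Syn3 probe, were computed otherwise. For these, spots were averaged before the log2 was taken and outlier spots were kept. The 13 were not filtered on background. Of 56605 probes, 38463 were flagged well above background throughout 1 genotype or both and were tested, and each gene was read from its brightest such probe. The 3 transgenic and 3 wild-type samples were compared in limma 3.58.1 (R 4.3.3, lmFit and eBayes, no covariates) with Benjamini-Hochberg adjustment over all 24933 genes, or over all 38463 probes. The number of arrays limits the precision. On simulated data with the same 24933 genes, 0% of 100 planted differences of 0.5 log2 and 20% of 100 of 1 log2 were called, with 2 false calls, and 95% intervals held the planted value in 97% and 96%.

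The 32 genes, the 87 other presynaptic genes and the marker lists were chosen with earlier results of these data known. All 32 are accounted for. Full values were given to the 2 genes per role with the smallest p, to called genes and to genes whose probes differ in sign; of the other presynaptic genes, any called and 3 per direction with the smallest p were named. Other names were chosen after their values were seen. Alternatives were normexp background correction with an offset of 50, quantile normalisation, the authors' table, 2 other filters on dim probes, slide as a block, an intensity trend, array weights, averaging the probes of a gene and leaving out each sample. The sequences of some probes are not reported here.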

Additional observations from a re-analysis of the deposited data

How the results depend on the processing

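No gene of the 32 was called under any of the 15 alternatives (lowest limma adjusted p 0.212, for Rims1 with array weights), nor were any of the other presynaptic genes. The differences of Rims1, Snap25, Syt2 and Unc13c stayed negative under all 15. The lower count was 14 without wild type 1, which is the same fit as slide as a block, and 14 with array weights. The median without that array was 0.0051. Leaving out each sample gave 14 to 26 lower genes, medians of −0.10 to 0.0051 and 6 to 11 genes with separated groups. The 11 came without wild type 1, with 5 lower and 6 higher, where 15.2% and 13.3% of all genes separated. On all 6 arrays those shares were 7.5% and 7.4%, so groups separated more often with fewer arrays. Shares of all genes are not given for the other samples left out. Signs of small differences changed. Amph had 0.0062 with normexp, 0.00017 with quantile normalisation and 0.00057 in the authors' table, where Dnm1 had −0.025, as with quantile normalisation. With slide as a block Syn1 had 0.033, Syngr1 0.030, Syngr3 0.060, Vamp1 0.12, Rab3a 0.0015, Rims2 0.035, Amph 0.084 and Sh3gl2 0.027. With array weights these were 0.0021, 0.028, 0.030, 0.088, 0.019, 0.036, 0.069 and 0.0075, in that order of genes. With the mean of each gene's probes Syn3 had 0.061 (its dimmest probe included), Syngr1 0.086, Unc13a −0.034 and Dnm1 −0.0081. Leaving out each sample in turn gave ranges that cross 0 for 18 genes: −0.12 to 0.033 for Syn1, −0.0014 to 0.14 for Syp, −0.25 to 0.030 for Syngr1, −0.084 to 0.060 for Syngr3, −0.063 to 0.10 for Synpr, −0.13 to 0.12 for Vamp1, −0.055 to 0.21 for Stx1a, −0.049 to 0.13 for Cplx1 and −0.29 to 0.074 for Cplx2. They were −0.065 to 0.0033 for Nsf, −0.13 to 0.016 for Rab3a, −0.12 to 0.025 for Rab3c, −0.029 to 0.086 for Rph3a, −0.065 to 0.17 for Bsn, −0.20 to 0.035 for Rims2, −0.066 to 0.084 for Amph, −0.15 to 0.027 for Sh3gl2 and −0.024 to 0.022 for Dnm1. The cause of these changes was not tested. The sample titles carry no shared numbers. No paired analysis was possible because no label ties a transgenic sample to a wild-type one. With 3 arrays a genotype, differences of 0.5 log2 were not called on simulated data, so an uncalled difference does not show equal levels.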
